A study of Mus musculus with 4 samples.

Results

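The Zfp genes are the mouse genes named for a zinc finger protein and a number. They were chosen by name alone, as the protein-coding genes of GENCODE vM1 called Zfp followed only by digits. The rule found 340 genes in 344 of the 22367 protein-coding annotation records (Zfp664, Zfp319, Zfp708 and Zfp738 have 2 records each, of which that with more reads was used). A Zfp gene with another one within 200 kb, measured between the nearest ends of the genes, was called clustered. This held for 201 genes, and the other 139 were isolated. The data are chromatin immunoprecipitation sequencing libraries made with an antibody labelled H3K4 from B cells of PA1-KO and PA1-WT mice, 1 library each. PA1 binds PTIP, and both belong to the MLL3/MLL4 complex, which methylates H3K4. The series concerns its part in immunoglobulin class switching. The B cells came from spleens of mice aged 6 to 14 weeks, were freed of CD43-positive cells, and were cultured for 2 days with LPS (25 µg/ml) plus either IL4 (5 ng/ml) or α-IgD-dextran (2.5 ng/ml). For these libraries the labels state neither the second stimulus nor the methylation state of H3K4, and they do not say how PA1 was deleted. The other 2 samples of the series were not analysed here.

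Most Zfp proteins bind DNA through an array of C2H2 fingers, loops held by a zinc ion that each read a few bases. Many carry a KRAB box as well, a domain that recruits the corepressor Trim28 and with it the H3K9 methyltransferase Setdb1, and these proteins are known for silencing retrotransposons. The KRAB genes arose by repeated local duplication and lie in tandem clusters, so their sequences are alike. Methylation of H3K4 marks nucleosomes at active and poised promoters, which in mammals are often rich in the dinucleotide CpG.

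The 250 bases upstream of the transcription start site (TSS) are shown for 7 members whose values are given below, in mm9 coordinates and read 5′ to 3′ along the gene, with each CpG in capitals. They were taken among members off chromosomes 8 and 18 whose upstream bases touch no annotated exon. Zfp790 on chr7:30600841-30601090 (plus strand) and Zfp369 on chr13:65379872-65380121 (plus strand) had the most reads among the clustered and the isolated members of this choice. For these, windows with another gene's TSS were also left out. Zfp238 on chr1:179374542-179374791 (plus strand) was the only member counted as higher in the knockout. Zfp697 on chr3:98186154-98186403 (plus strand), Zfp704 on chr3:9610086-9610335 (minus strand) and Zfp777 on chr6:47998114-47998363 (minus strand) were counted as lower. Zfp87 on chr13:67622262-67622511 (minus strand) had no read in either library.
Zfp790: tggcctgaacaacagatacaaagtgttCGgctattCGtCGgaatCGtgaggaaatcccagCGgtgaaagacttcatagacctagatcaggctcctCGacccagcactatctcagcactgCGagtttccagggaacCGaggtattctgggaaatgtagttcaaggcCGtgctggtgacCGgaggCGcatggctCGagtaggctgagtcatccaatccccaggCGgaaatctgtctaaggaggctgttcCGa
Zfp369: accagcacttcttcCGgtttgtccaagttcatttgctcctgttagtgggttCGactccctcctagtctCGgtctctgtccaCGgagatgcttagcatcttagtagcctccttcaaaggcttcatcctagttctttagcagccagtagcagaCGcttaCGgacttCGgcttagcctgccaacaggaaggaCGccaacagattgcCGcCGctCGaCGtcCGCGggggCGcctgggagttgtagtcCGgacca
Zfp238: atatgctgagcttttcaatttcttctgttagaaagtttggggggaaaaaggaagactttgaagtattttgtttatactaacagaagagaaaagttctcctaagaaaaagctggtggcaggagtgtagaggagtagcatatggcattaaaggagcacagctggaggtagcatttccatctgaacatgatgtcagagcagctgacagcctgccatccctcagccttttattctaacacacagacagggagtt
Zfp697: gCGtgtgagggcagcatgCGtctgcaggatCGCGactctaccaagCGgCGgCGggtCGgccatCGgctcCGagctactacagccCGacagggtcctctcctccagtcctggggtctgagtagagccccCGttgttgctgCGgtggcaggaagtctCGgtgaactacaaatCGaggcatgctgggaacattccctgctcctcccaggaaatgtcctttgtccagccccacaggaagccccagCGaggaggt
Zfp704: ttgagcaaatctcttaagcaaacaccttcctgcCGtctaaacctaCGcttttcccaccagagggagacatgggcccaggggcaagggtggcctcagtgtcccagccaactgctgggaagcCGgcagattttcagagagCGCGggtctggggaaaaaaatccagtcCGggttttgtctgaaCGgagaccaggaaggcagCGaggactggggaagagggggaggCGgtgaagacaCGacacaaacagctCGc
Zfp777: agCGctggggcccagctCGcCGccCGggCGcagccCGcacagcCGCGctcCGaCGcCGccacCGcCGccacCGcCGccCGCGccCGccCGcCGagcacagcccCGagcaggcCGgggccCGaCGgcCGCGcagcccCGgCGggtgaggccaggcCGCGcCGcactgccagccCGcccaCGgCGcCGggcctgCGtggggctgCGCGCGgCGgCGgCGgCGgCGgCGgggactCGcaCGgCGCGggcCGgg
Zfp87: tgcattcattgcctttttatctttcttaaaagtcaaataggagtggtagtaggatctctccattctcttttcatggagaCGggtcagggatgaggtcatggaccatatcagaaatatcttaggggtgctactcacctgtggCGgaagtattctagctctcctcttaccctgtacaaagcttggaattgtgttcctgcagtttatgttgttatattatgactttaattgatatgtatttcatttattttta
The upstream bases of Zfp790 held 14 CpG and those of Zfp369 held 16. Zfp697 held 16, Zfp704 held 11 and Zfp777 held 50, with a GC content of 87.6%. Zfp238 had none at all and Zfp87 had 2.

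The Zfp promoters were marked more often than protein-coding promoters at large. Reads within 1 kb of a single TSS per gene were counted, the start being the one where the 2 libraries together had most, and 50 or more reads in all were needed to compare the genotypes. Of the 340 Zfp genes, 267 (78.5%) passed, against 12186 of 22367 (54.5%) of all protein-coding records. Clustered genes passed in 162 of 201 cases (80.6%; exact binomial 95% interval 74.4 to 85.8%) and isolated genes in 105 of 139 (75.5%; 67.5 to 82.4%), so these intervals overlap. Intervals on shares treat genes as independent, although duplicated neighbours share sequence. In either library 99.9% of the promoter reads lie on 25-mers that occur once in NCBIM37, the assembly of mm9, so windows with repeated sequence can hold few reads. Among windows with at least 90% of their 25-mers unique, 118 of 133 clustered genes (88.7%) and 92 of 111 isolated genes (82.9%) passed, against 64.3% of all such records. Below 90%, the shares were 64.7% of 68 and 46.4% of 28, against 25.2%.

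**Figure D1:**
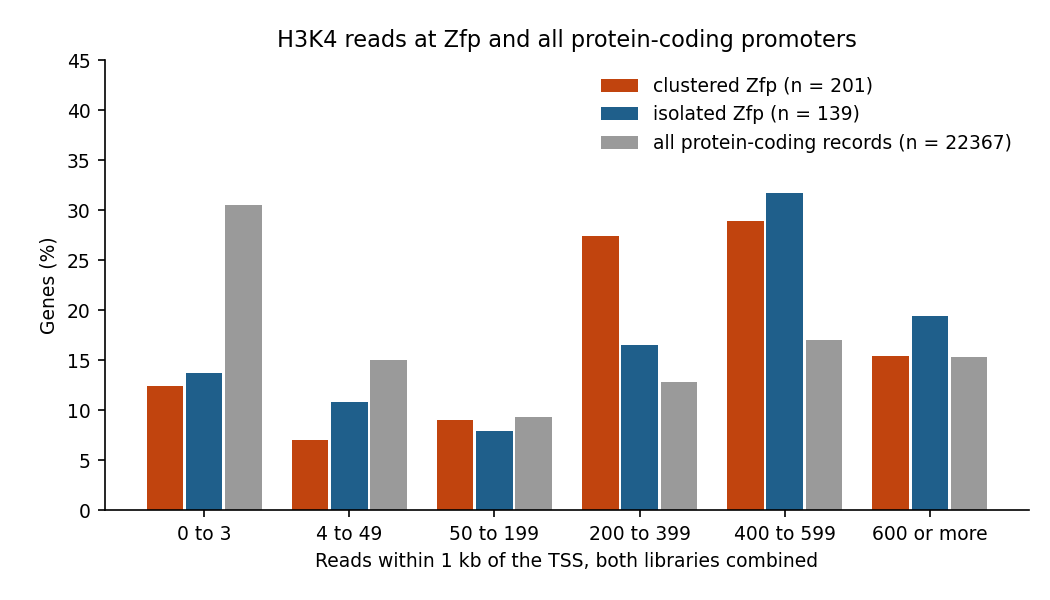
Bars give the percentage of genes (y axis) by reads within 1 kb of the TSS in both libraries combined (x axis) for 201 clustered Zfp genes, 139 isolated Zfp genes and 22367 protein-coding records. The lowest bin, 0 to 3 reads, held 12.4% of clustered and 13.7% of isolated Zfp genes against 30.5% of all records.

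Among promoters that passed, the median number of reads in both libraries was 459 for Zfp genes and 462 for all, a near equal level at the promoters that passed. It was 445 for clustered and 477 for isolated members. Only 8.53% of Zfp genes fell between 4 and 49 reads, and 12.9% had 3 or fewer. The members on either side of the 50-read minimum were Zfp114 with 45 reads and Zfp879 with 52.

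The 8 members with the most reads were Zfp408, Zfp369, Zfp830, Zfp689, Zfp472, Zfp263, Zfp62 and Zfp426, 4 of them clustered and 4 isolated, with the clustered Zfp790 tied with Zfp426 at 862 reads. Levels are given as normalized RPM, scaled reads per 1000000 nuclear reads, in the same 2 kb window for every gene. Zfp408 had 90.6 RPM in the knockout (458 reads) and 91.7 in the wild type (529 reads). Zfp369 had 95.2 RPM in the knockout (481 reads) and 84.6 in the wild type (488 reads). Zfp689, in a cluster on chromosome 7, had 95.4 RPM in the knockout (482 reads) and 82.4 in the wild type (475 reads). Their ratios of knockout to wild type were 0.988, 1.12 and 1.16. The other 5 lay between 0.933 for Zfp62 and 1.20 for Zfp426, so all 8 stayed within 1.5-fold.

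The 73 members that did not pass had, at the median, fewer CpG than those that did. A median of 2 CpG lay in the 250 bases upstream of their TSS, against 14 for the members that passed, 3 for all records that did not pass and 18 for all that did. Of the 73, 44 had 3 reads or fewer and 10 had none. In 34 of them at least 90% of the window was unique, so reads could have been placed there. Zfp87 is such a case, with 90.1% unique: 0 reads in both libraries, where a count of 0 allows up to 3. Its TSS lies 4826 bp from that of Zfp58, which had 305 knockout and 330 wild-type reads, and the gene bodies overlap.

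At the marked promoters, reads flanked a dip at the TSS in both genotypes, with a lower peak next to the TSS and higher shoulders in the knockout. In clustered members with no other gene's TSS in the window (149 promoters), the mean level peaked in the bin centred 150 bp downstream of the TSS, at 3.92 RPM per 100 bp in the knockout and 4.14 in the wild type. It dipped to 1.14 and 1.33 in the bin just upstream of the TSS and rose again to 2.83 and 2.62 at 250 bp upstream. At 650 bp downstream it was 2.62 in the knockout and 2.14 in the wild type. Isolated members (92 promoters) had the same dip and upstream peak. Downstream, their highest bin was at 550 bp in the knockout (3.39 RPM) and at 150 bp in the wild type (3.21 RPM). Of the pooled reads within 3 kb, 70.2% lay within 1 kb in the knockout and 72.6% in the wild type for isolated members, and 87.4% and 88.0% for clustered ones. Taken per promoter, the median share over all 12186 compared promoters was 84.9% in the knockout and 86.2% in the wild type. A lower share in the knockout was thus not particular to Zfp genes. No profile was made over all promoters, so the peak and shoulders have no such comparison. These are single libraries, so the spread between replicates is not known.

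**Figure D2:**
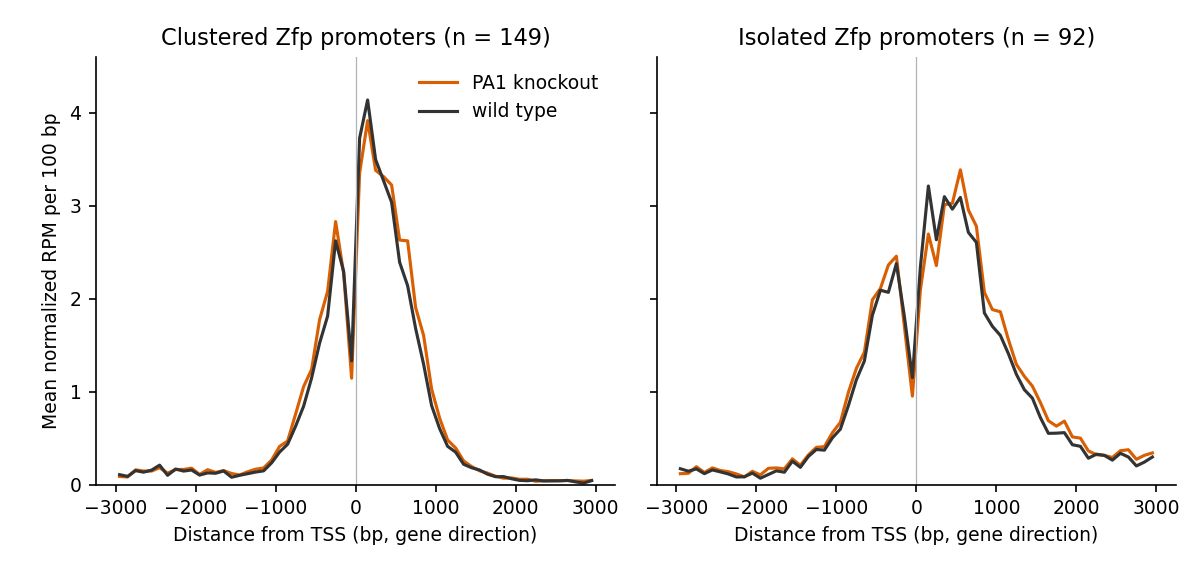
Lines give mean normalized RPM per 100 bp bin (y axis) by distance from the TSS in the direction of the gene (x axis) in the knockout and the wild type, for 149 clustered and 92 isolated Zfp promoters with 50 or more reads. At 1450 bp downstream the clustered mean was 0.193 RPM in the knockout and 0.180 in the wild type, and the isolated mean 1.06 and 0.929.

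Reads lay in a narrower span around the TSS of clustered members. The span from the 5th to the 95th percentile of the reads within 3 kb of the TSS had a median of 1346 bp over clustered members, 2010 bp over isolated ones and 1960 bp over all compared promoters. The share of those reads that lay within 1 kb had a median of 94.6% in the knockout and 95.2% in the wild type for clustered members, against 85.3% and 87.3% for isolated ones. Narrower spans moved with lower GC content, and clustered members were also narrower within a range of GC. Between 45 and 50% GC the medians were 1264 bp for 76 clustered members, 1423 bp for 22 isolated members and 1585 bp for all, and between 50 and 55% they were 1449, 1787 and 1818 bp. Over windows with at least 90% unique sequence the medians were 1417 bp for clustered and 2013 bp for isolated members. Uniqueness was counted within 1 kb of the TSS only, so repeated sequence farther out, up to 3 kb, was not screened. Other TSSs and separate peaks within 3 kb were not left out either, so a span can take in more than the promoter's own mark. Zfp90, for example, spanned 3584 bp with 92.6% of its knockout and 87.8% of its wild-type reads within 1 kb. The narrowest was Zfp418, with 594 bp. The widest were Zfp91, an E3 ubiquitin ligase linked to noncanonical NF-kB signalling, with 5570 bp, Zfp608 with 5314 bp and Zfp36, the mRNA-destabilizing protein tristetraprolin, with 4971 bp. In 9 of the 267 members, under 50% of the reads within 3 kb lay within 1 kb in both libraries.

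The protein class ran with the clustering. A pattern for the KRAB A box, searched in the annotated proteins, was found in 124 of 201 clustered genes (61.7%) and 32 of 139 isolated ones (23.0%), and in 17 of 21903 other genes that have no C2H2 finger. Boxes that the pattern misses were not counted, so genes with no match may still carry one. At least 1 finger matched in 325 of the 340. The median number of fingers was 11 in clustered and 7 in isolated proteins. The median span was 1291 bp for clustered and 1498 bp for isolated KRAB genes, and 1482 bp for clustered and 2089 bp for isolated genes with no KRAB match. KRAB and clustering overlap and share sequence, so their parts in the width cannot be told apart here.

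Few reads lay at 3′ ends. For 170 compared members whose 3′ end lies over 5 kb from any TSS, the window around that end held a median of 1 read in each library, against 435 in both libraries combined at the TSS. The exception was Zfp771, with 230 reads in both libraries at its 3′ end.

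Some promoter motifs were less or more common in the compared members than in all compared promoters, searched on both strands from 250 bases upstream to 50 downstream. The SP-family box GGGCGG was found in 45.7% of clustered, 64.8% of isolated and 67.5% of all compared promoters. The ETS-family motif CCGGAAG was found in 24.1, 24.8 and 18.7%. The letters ACTACAA, part of the site of Zfp143, a promoter-binding activator, were found in 9.26% of clustered, 4.76% of isolated and 3.93% of all. The CCAAT box was found in 35.2% of compared Zfp promoters and 35.5% of all. The YY1 motif AAGATGG was found in 8.99% against 7.85%, and the E box CACGTG in 8.24% against 9.94%. None of these motifs holds another, and no match says only that the letters are not in this window.

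Between the genotypes, the Zfp promoters were nearly level. After scaling by the trimmed mean of M values, a promoter was counted as changed when its ratio reached 1.5-fold and its exact 95% interval excluded 1, as a description of these 2 libraries with no replicate and no test. Intervals cover counting error only, because each genotype has 1 library. Each position and strand occurs at most 1 time in a file, but with no molecular identifier, reads need not stem from separate molecules. In bulk chromatin, fewer cells with the mark and less mark per cell cannot be told apart. Of 267 compared members, 1 was higher, against a background of 0.665% of all compared promoters, and 7 (2.62%) were lower, against 4.9% (5.56% in either direction). The exact interval on the lower share, 1.06 to 5.33%, holds the background. The remaining 259 were not counted as changed. The median log2 ratio was 0.046 for Zfp promoters, with quartiles of -0.12 and 0.17, and 0.0019 for all, with quartiles of -0.19 and 0.14.

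**Figure D3:**
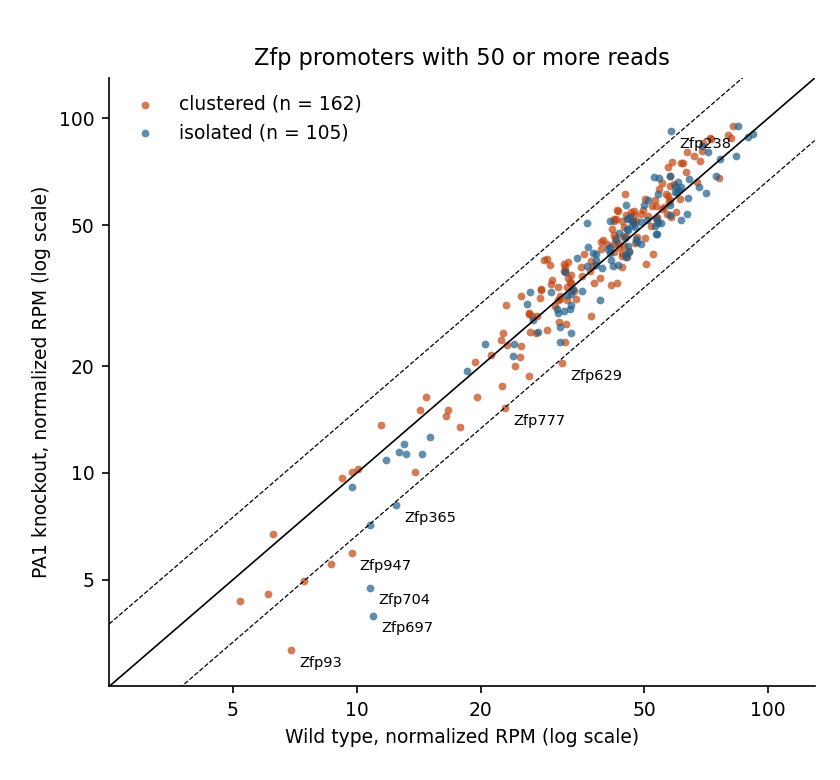
Each point is 1 of the 267 Zfp promoters with 50 or more reads, with wild-type level on the x axis and knockout level on the y axis, both in normalized RPM on log scales. The solid line marks equal levels and the dashed lines 1.5-fold, and the labelled points are the 1 higher and 7 lower promoters.

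Clustered promoters had a median log2 ratio of 0.077, isolated ones of -0.023. Ratios above 1 were found in 63.6% of the former and 47.6% of the latter, against 50.2% of all compared promoters. At 45 to 50% GC the shares were 72.4% of clustered, 72.7% of isolated and 78.6% of all promoters. None of the 162 clustered and 1 of the 105 isolated promoters was higher, and 4 and 3 were lower. The sign of the clustered median depended on the scaling: it was -0.039 with total nuclear reads and -0.23 with background reads, where the median of all promoters was -0.11 and -0.31. Removing the trend of the ratio with GC content turned it to -0.046 and the isolated median to 0.026, which reversed the order of the classes. Clustered windows have a median GC content of 48.8%, isolated ones of 55.1%, and over all promoters the ratio fell as GC rose.

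Within ranges of GC the classes lay close together where both had over 20 members. At 45 to 50% GC the median log2 ratio was 0.11 for 76 clustered, 0.12 for 22 isolated and 0.14 for all promoters. At 50 to 55% it was -0.019 for 43 clustered, -0.016 for 23 isolated and 0.036 for all. At 55 to 60% the 14 clustered members had 0.068 and the 30 isolated ones -0.091, against -0.076 for all. At 60% and over, 6 clustered members had -0.39 and 23 isolated ones -0.099, against -0.21. Under 45% GC, 23 clustered members had 0.21 and 7 isolated ones 0.16, against 0.27. The order of the classes thus turned between ranges, but the wider gaps rest on ranges with fewer than 20 members of a class.

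**Figure D4:**
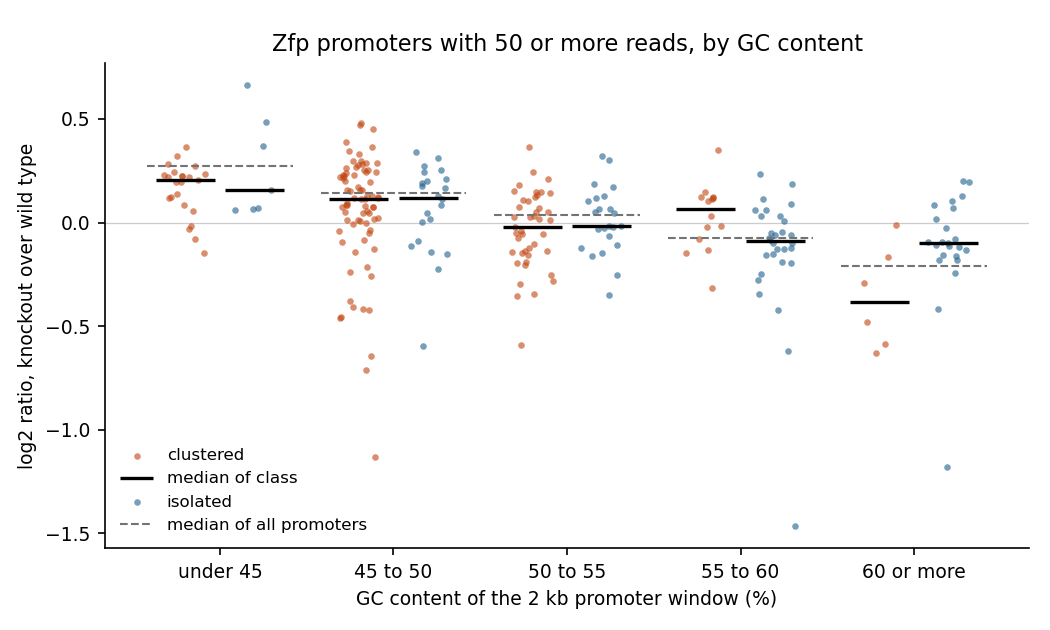
Each point is 1 of 267 Zfp promoters, with the log2 ratio of knockout over wild type on the y axis, in 5 ranges of window GC content on the x axis. Solid bars give the median of each class and dashed bars that of all compared promoters, which drops from 0.27 under 45% GC to -0.21 at 60% and over.

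Members with a KRAB match had a median log2 ratio of 0.086 (119 promoters) and those without one of -0.011 (148). The ratio also moved with the level. The 10 members with 50 to 99 reads had a median of -0.62, against -0.44 for all promoters of that level, and 4 of the 10 were counted as lower, an exact interval of 12.2 to 73.8% that holds the 26.8% of all 912 promoters of that level. The 19 members with 100 to under 200 reads had a median of -0.14, against -0.30 for all of that level. Of these 19, 1 was counted as lower (5.26%). Its exact interval of 0.133 to 26.0% holds the 21.1% of all 1178 promoters of that level. The 78 members with 200 to under 400 reads had -0.0035, against -0.080 for all. The 145 members with 400 to 799 reads had 0.071, against 0.049 for all. The part of GC content and of level in these medians was not tested beyond the removal of both trends.

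Zfp238 (Zbtb18, also RP58) encodes a BTB-domain repressor needed in cortical development. Its promoter had 92.0 RPM in the knockout (465 reads) and 58.1 in the wild type (335 reads), a ratio of 1.58 (95% interval 1.37 to 1.83). It was the highest ratio among compared members, in a window of only 39.8% GC. At a second annotated start 1160 bp downstream the counts were 320 and 171, a ratio of 2.14 (1.77 to 2.59). The windows of the 2 starts overlap and share reads, so this ratio is not separate support. The second window had 37.3% GC. Under 45% GC, 46 of all 477 compared promoters (9.64%) were counted as higher. The ratio of Zfp238 was 1.48 in a 2 kb window, 1.46 with total reads and 1.28 with background reads. It was 1.31 after removal of the GC trend and 1.17 after that of both trends. All of these fell short of 1.5-fold.

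Zfp697 had 3.96 RPM in the knockout (20 reads) and 10.9 in the wild type (63 reads), a ratio of 0.362 (0.207 to 0.607). It was the lowest ratio among compared members and stayed below 1/1.5 under each alternative, rising to 0.492 with both trends removed. Zfp704 had 4.75 RPM (24 reads) against 10.8 (62 reads), a ratio of 0.442 (0.264 to 0.718), but 0.731 in a 2 kb window. Zfp93 had 3.17 RPM (16 reads) against 6.94 (40 reads), a ratio of 0.456 (0.239 to 0.834). These 3 were the members past 2-fold, and each had fewer than 90 reads in all.

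The remaining lower members lay near the threshold. Zfp947 had 30 knockout and 56 wild-type reads (0.611, 0.379 to 0.969), with 34.9% of its window unique. Zfp629 had 103 and 182 (0.646, 0.502 to 0.827). Zfp365, a protein of neurons and of genome stability in which no C2H2 finger was matched, had 41 and 72 (0.650, 0.432 to 0.967). Zfp777 had 77 and 132 (0.666, 0.496 to 0.888). With the GC and level trends both removed, none of the other 6 stayed counted beside Zfp697.

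The 201 clustered genes form 49 runs, chains of members each within 200 kb of the next. Of these, 14 runs hold 5 or more members, 118 genes in all. In 25 runs every member passed the minimum of reads, and in 3 none did. The members nearest to the 200 kb limit were Zfp467 and Zfp775, 167355 bp apart and so clustered, and Zfp516 and Zfp236, 218145 bp apart and so isolated. Zfp467 had 125 knockout and 131 wild-type reads and Zfp775 had 0 and 2, while Zfp516 had 229 and 246 and Zfp236 had 216 and 235.

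The largest run, 17 genes over 788408 bp of chromosome 13 (chr13:67139530-67927937), was marked at 15. Their ratios ran from 0.946 for Zfp455 to 1.29 for Zfp953, 14 of 15 were above 1, and the median log2 ratio was 0.093, beside 0.13 for 8 other promoters of that stretch. Zfp58 and Zfp748 had the most reads (635 and 631), Zfp87 and Zfp459 the fewest (0 and 1). The run of 15 genes at chr17:21520712-22593656 was marked throughout, all 15 with a KRAB match, from Zfp947 and Zfp820 with 86 and 107 reads to Zfp943 and Zfp52 with 509 and 589. Its median log2 ratio was 0.22, with ratios from 0.611 (Zfp947) to 1.40 (Zfp758), and 11 of 15 were above 1. Zfp942 and Zfp943 start 88 bp apart on opposite strands and Zfp944 and Zfp758 start 59 bp apart, so each of these pairs shares nearly all its reads. Across all Zfp genes 6 compared members had windows that overlap another member's.

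The 14 genes at chr7:30553571-30954746 were marked at 13, with Zfp790 (862 reads) and Zfp146 (833 reads) highest and Zfp14 (9 reads) and Zfp30 (295 reads) lowest. Zfp82 had the lowest ratio there (0.769) and Zfp260 the highest (1.27), around a median log2 ratio of 0.13. The 12 genes at chr7:24866943-25372660 were marked at 9. None of the 12 matched the KRAB pattern, but how many boxes the pattern misses was not measured, so they may still carry some. Zfp180 (599 reads) and Zfp94 (499 reads) had the most reads there, and Zfp108 (2 reads) and Zfp111 (31 reads) the fewest. Ratios ran from 0.456 for Zfp93 to 1.08 for Zfp112, with a median log2 ratio of -0.041 and 3 of 9 above 1.

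**Figure D5:**
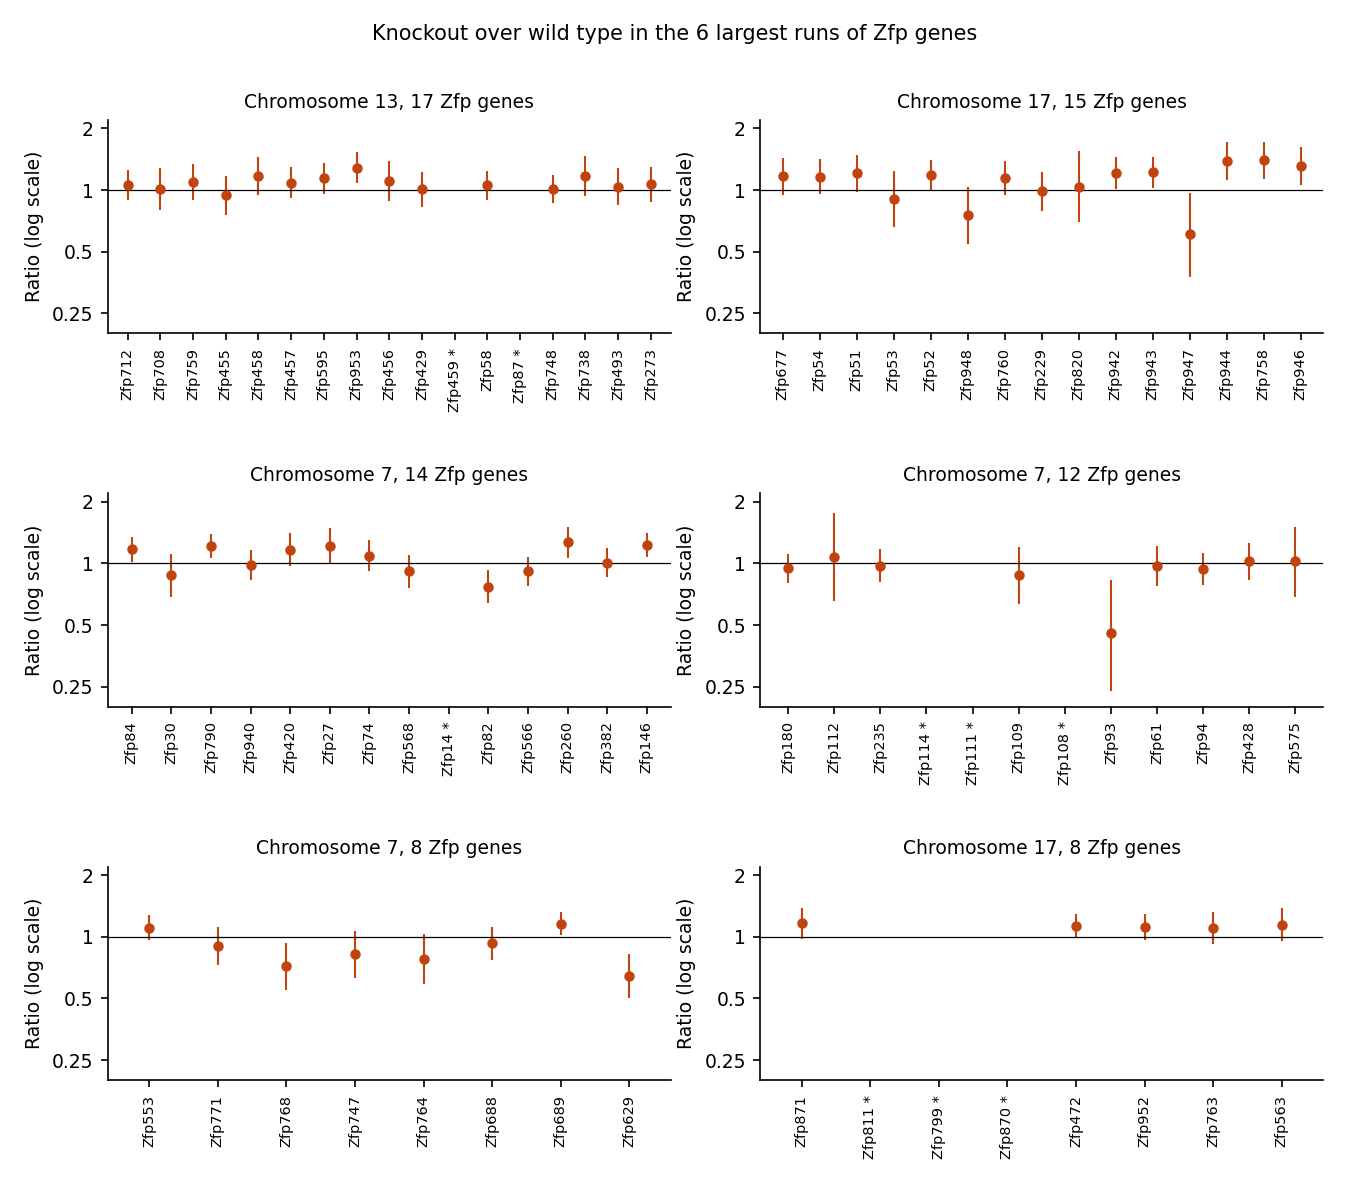
Points give the ratio of knockout over wild type (y axis, log scale) with its exact 95% interval for each compared member of the 6 largest runs, in order along the chromosome. Names with an asterisk had fewer than 50 reads. In the run of 8 genes on chromosome 7, 6 of 8 ratios lie below 1.

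The run of 8 genes at chr7:134376575-134759311 lies next to the targeted gene. PA1 (2900092E17Rik in this annotation) had 114 reads in the knockout and 261 in the wild type at its own promoter (ratio 0.498, 0.396 to 0.623), and Zfp553 lies 212734 bp from it. The labels do not give the deleted part, so this does not check the deletion. The 8 Zfp promoters had a median log2 ratio of -0.21, and 6 of 8 ratios were below 1, from 0.646 for Zfp629 and 0.718 for Zfp768 to 0.930 for Zfp688. Zfp553 (1.11) and Zfp689 (1.16) were above 1. The 10 other compared promoters of the stretch had a median of 0.064. On chromosome 7, 55 positions carried a mismatch to the reference in at least 3 reads, with a share of 80% or more, in the knockout alone and 1 in the wild type alone, so the 2 libraries differ in sequence there. Such positions lay on other chromosomes too, among them 47 in the wild type alone and 2 in the knockout alone on chromosome 6, and 18 and 22 on chromosome 4. Of the 86 Zfp genes of chromosome 7, 68 had such a knockout-only position within 5 Mb. Their median log2 ratio was -0.00039 over the 55 compared, against 0.042 for the others there. The part of sequence differences or of distance from PA1 was not tested.

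Members with a textbook role were mostly marked and level. Zfp318, which governs the alternative splicing that gives IgD in B cells, had 147 reads in the knockout and 190 in the wild type (0.883, 0.707 to 1.10, given here and below as the ratio and its interval). Zfp36 had 323 and 391 (0.943, 0.811 to 1.10). Zfp809, which silences murine leukaemia proviruses, had 233 and 245 (1.09), and Zfp568, which silences a placental Igf2 transcript, had 213 and 265 (0.917). Zfp143 had 314 and 347 (1.03). Both factors that act with or against the B lineage regulator Ebf1 were low: Zfp521 had 64 and 87 reads, and Zfp423 had 2 and 13, too few to be compared.

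Of the imprint-guarding KRAB proteins, Zfp57 had 12 knockout and 24 wild-type reads and Zfp445 had 2 in each library. Zfp42 (Rex1), a marker of pluripotent cells, had 1 and 0. Zfp281, a regulator in pluripotent cells, had 130 and 180 reads (0.824), and Zfp335, needed for T cell maturation, had 348 and 431 (0.921). Zfp207, a spindle assembly protein, had 348 and 333 (1.19), and Zfp217, a corepressor subunit amplified in cancers, had 259 and 238 (1.24). Zfp106 (1.26), Zfp110 (1.20), Zfp91 (1.09), Zfp384 (1.07) and Zfp148 (1.02) were likewise within 1.5-fold.

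The genes through which KRAB proteins silence were looked at as a list. Of 21 records of Trim28, Setdb1, the HP1 genes Cbx1, Cbx3 and Cbx5, and other corepressor and methyltransferase genes, 20 were compared and none was counted as changed, where the exact upper limit of a share of 0 in 20 is 16.8% and the background is 5.56%. Trim28 had 149 knockout and 200 wild-type reads (0.850, 0.683 to 1.06) and Setdb1 had 51 and 62 (0.939, 0.635 to 1.38). The extremes were Atf7ip, a Setdb1 partner, at 1.39 and Uhrf1, which binds hemimethylated DNA, at 0.838. Among zinc finger genes of other names, 34 of 37 Zbtb records, 8 of 9 Zkscan and 6 of 16 Zscan were compared. Zbtb46, a marker of dendritic cells, was lower (49 against 123 reads, 0.455), and no other Zbtb, Zkscan or Zscan record was counted as changed.

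Of the B cell markers, Pax5 had 570 reads in the knockout and 541 in the wild type, Cd79a had 376 and 385, and Ms4a1 had 462 and 444. The 7 T cell markers summed to 158 and 192 reads, nearly all at Lck, with Cd3e at 1 and 0. The 7 myeloid markers summed to 214 and 296 with Csf1r at 0 in both, and the 5 erythroid ones to 170 and 185. The nuclear reads numbered 5259995 in the knockout and 5539475 in the wild type.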

How the data were processed

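The deposited files hold 1 mapped read of 25 bases per line, giving its position, strand and how it matched, unnormalized. For these files mm9 and SICER are named, per the submitters' processing notes; the sources used here name no aligner. Within a file each position and strand occurs at most 1 time. Here, 5′ ends were shifted 75 bp toward the fragment's centre and counted within 1 kb of 1 TSS per GENCODE vM1 record, that with the most reads. Scaling used the trimmed mean of M values (trims of 30% and 5%). Ratios have exact conditional (Clopper-Pearson) 95% intervals. With 1 library per genotype no test was made. Uniqueness of 25-mers was counted in NCBIM37. The counting and ratio steps were tested on simulated data. A planned set matched on reads and GC was replaced by medians within ranges. The members, lists and rules were chosen with earlier results of these data known. Named genes were those with the most reads, those counted as changed, the largest runs and a list with textbook roles (Zfp683 was not found by name). One marker gene is not reported here. Python 3.11, numpy 2.4.6 and scipy 1.17.1 were used.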

Additional observations from a re-analysis of the deposited data

How the results depend on the processing

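No paired analysis was possible because each genotype has 1 library. The count of higher members was 2 in a 500 bp window and 0 in a 2 kb window, with total reads, with background reads, at 2-fold, and after removal of the trend with GC, with level or with both. The count of lower members was 27 with background reads (10.1% against 16.7% of all promoters), 3 at 2-fold, 2 after removal of the level trend and 1 after removal of both. The median log2 ratio of Zfp promoters was -0.069 with total reads, -0.26 with background reads, -0.018 after removal of the GC trend and -0.028 after removal of both. For clustered promoters it was -0.039, -0.23, -0.046 and -0.042, and for isolated ones -0.14 with total and -0.33 with background reads. The shares of genes with 50 or more reads were 88.7% (clustered) and 82.9% (isolated) over unique windows. The other alternatives, among them other distances for a cluster (100 kb and 500 kb), the 5′-most TSS and no shift, left these counts, medians and shares within their spread. Counts do not say which genes: of the 8 members counted as changed, 4 were shared with the 500 bp window, 5 with the 2 kb window and 4 after removal of the GC trend, where Zfp2, Zfp239, Zfp37 and Zfp454 were counted instead. For 31 named members, 309 of 339 recomputed ratios stayed within their first interval and 30 did not. In 32 cases, over 18 members, the ratio crossed 1, though in 0 of the 8 counted as changed. Scaling to background reads moved the median of all promoters to -0.31, so ratios hold relative to that median. Depth limits promoters under 100 reads, whose intervals span over 2-fold.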
